A study of Mus musculus with 23 samples.

Results

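The receptors for the colony-stimulating factors and the ligand Csf1 were followed in striatal microglia of male C57BL/6J mice. The 6 genes, out of 35976 in the count table, were chosen by symbol: Csf1r, Csf2ra, Csf2rb, Csf2rb2, Csf3r and Csf1. All 6 had enough counts to be among the 16121 genes tested. The choice was made with the values of Csf2ra and Csf3r in Maintenance against Saline already known, so that comparison is given for the 6 genes as levels and fold changes with no test.

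Mice were 9 weeks old at the start and self-administered through an intravenous catheter in daily sessions of 2 hr over 15 days. The Saline group (n = 8 libraries) received 0.9% saline and the Maintenance group (n = 8) methamphetamine at 0.05 mg/kg per infusion, and both were collected straight after the final session. The Abstinence group (n = 7) took the same methamphetamine sessions and then spent 21 days of forced abstinence in the home cage. No saline group of these libraries passed through the 21 days. In Abstinence against Saline, drug history, age, home cage time and time since the last session therefore cannot be told apart. Maintenance took the same drug sessions. In Abstinence against Maintenance, age, home cage time and time since the last session and drug intake cannot be told apart. All mice carried the catheter and the session schedule, and the labels name no transgene. The labels do not say whether each library came from a separate mouse, so p-values measure the spread between libraries.

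Microglia depend on Csf1r, a receptor tyrosine kinase that binds M-CSF (the product of Csf1) and IL-34 and keeps these cells alive. The GM-CSF receptor is built differently: Csf2ra encodes the alpha chain that binds the ligand, and Csf2rb the common beta chain that recruits the kinase Jak2 and is shared with the receptors for IL-3 and IL-5. Mice carry a further beta chain, Csf2rb2, which pairs with the IL-3 receptor alpha chain. Csf3r encodes the G-CSF receptor, which signals as a homodimer through Jak and Stat proteins and is best known from neutrophils.

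The promoters of Csf2ra and Csf3r are shown because their levels in Maintenance led to the choice of these genes. Each is the 250 bases before the RefSeq start in GRCm38.p6, written on the gene's own strand, at chr19:61228419-61228668 (minus) for Csf2ra and chr4:126024409-126024658 (plus) for Csf3r. Capitals mark matches to GAGGAA, a core that PU.1 and other ETS factors can bind, and to TGACGTCA, the cyclic AMP response element.
Csf2ra: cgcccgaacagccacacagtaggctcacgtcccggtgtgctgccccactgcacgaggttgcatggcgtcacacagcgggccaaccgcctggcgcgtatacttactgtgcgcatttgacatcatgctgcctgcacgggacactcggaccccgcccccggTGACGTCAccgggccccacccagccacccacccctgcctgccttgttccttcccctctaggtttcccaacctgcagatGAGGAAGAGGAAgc
Csf3r: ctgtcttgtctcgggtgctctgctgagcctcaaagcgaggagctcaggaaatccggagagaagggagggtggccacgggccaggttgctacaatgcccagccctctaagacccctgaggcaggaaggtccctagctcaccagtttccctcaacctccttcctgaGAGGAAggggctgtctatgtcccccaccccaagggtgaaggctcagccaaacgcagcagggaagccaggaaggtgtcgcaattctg
GAGGAA was found 2 times in the Csf2ra promoter, side by side at bases 14 to 9 and 8 to 3 before the start, and 1 time in that of Csf3r, at bases 86 to 81. TGACGTCA was found 1 time, in Csf2ra at bases 92 to 85. On either strand GAGGAA occurs in 23.1% of the 27025 promoters of this length in the RefSeq table and TGACGTCA, which is its own reverse complement, in 1.62%. TTGCNNAA, a C/EBP-type motif found in 9.55% of promoters, was in none of the 4 promoters that the table holds for these genes. The promoter of Csf2rb2 held 1 match to GAGGAA on the other strand (bases 167 to 162) and that of Csf1 none of the 3 motifs. The 3 motifs were chosen after the sequences were seen, and a match describes letters, not binding.

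Both starts lie inside the outer bounds of the gene in the same annotation, so the Csf3r window and the end of the Csf2ra window nearest its start fall within the annotated gene. Csf2ra lies on chromosome 19 (61217191 to 61228461), Csf3r on chromosome 4 (126023441 to 126044975) and Csf1 on chromosome 3 (107741048 to 107760469). The beta chain genes are neighbours on chromosome 15, with Csf2rb2 at 78282507 to 78305721 and Csf2rb at 78325800 to 78351001, 20078 bp apart and on opposite strands. Their longest protein-coding transcripts (4900 and 4740 bases) were identical at 90.9% of 4679 aligned bases, with a longest shared stretch of 242 bases, and 3.6% of the windows of 150 bases in Csf2rb2 were also found in Csf2rb. How the counting placed reads from these stretches is not given in the sources used here, so the split of counts between Csf2rb and Csf2rb2 is uncertain. Strand is not stated either, but the genes in the table that overlap the 6 held few counts, at most 344 in a library (Gm32908, within Csf3r).

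Library totals were 55 to 94.8 M (1e6) counts, with 12459 to 17034 genes detected. The 10 microglia markers had counts in every library, with summed levels of 50300 to 62400 CPM (counts per 1e6 counts of the library, with TMM scaling) in Saline, 41700 to 61400 in Maintenance and 52300 to 60500 in Abstinence, so the labelled cell type showed its defining genes. Among Maintenance libraries 3 stood apart: replicates 6 and 7 had the fewest genes detected (12459 and 12740), and replicate 8 held 73100 CPM of choroid plexus and ependyma markers against at most 333 in any other library. Without these 3 libraries the log2 fold changes in Maintenance against Saline were -0.51 ± 0.09 (SE) for Csf2ra and -0.36 ± 0.08 for Csf3r, and in Abstinence against Maintenance 0.27 ± 0.09 and 0.38 ± 0.08 (edgeR adjusted p = 0.149 and 0.0221), beside the values from all libraries given with each gene. Striatal microglia were sequenced in bulk, so fewer cells of a type and less RNA per cell cannot be told apart.

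Csf1r was by far the most abundant of the 6 transcripts. Divided by transcript length, its median level was 1167 CPM per kb in Saline, 1039 in Maintenance and 1181 in Abstinence. Csf3r followed at 81.9, 63.3 and 79.3 CPM per kb, and Csf2ra at 46.3, 29.6 and 38.1. Csf2rb (11.8, 11.1 and 10.3) and Csf1 (9.78, 11.6 and 12.4) overlapped in their ranges over libraries and have no order between them. Csf2rb2 was lowest at 1.87, 1.74 and 2.08 CPM per kb. The ranges of the other neighbours in this order did not overlap in any group. The transcript of the ligand-binding alpha chain of the GM-CSF receptor was thus above that of its beta chain per kb in every group, and that of the G-CSF receptor above both.

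**Figure D1:**
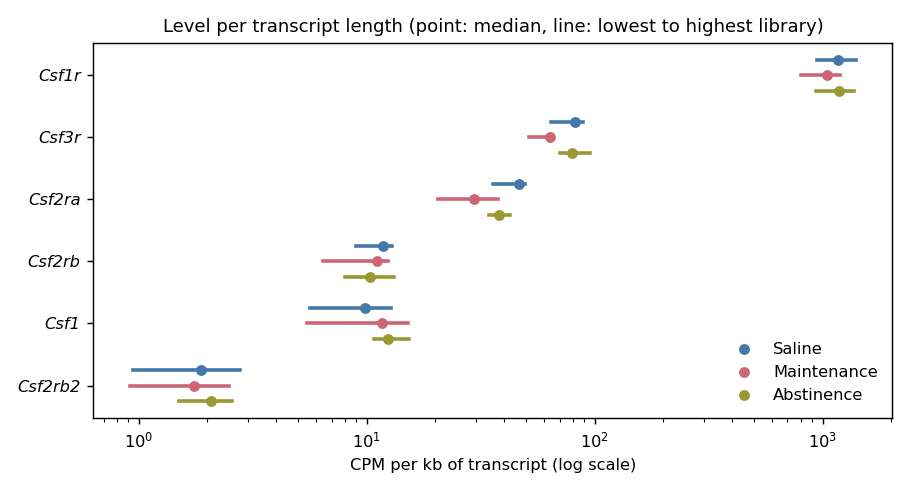
Level of each gene in CPM per kb of its longest protein-coding transcript (log axis), with a point at each group's median and a line from its lowest to its highest library. Csf1r has a median of 1167 CPM per kb in Saline, Csf3r 81.9 and Csf2ra 46.3, and Csf2rb2 is lowest in every group.

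Csf2ra, the alpha chain, was lower in Maintenance than in Saline in nearly every library. Its level in Saline was 66.4 to 91.5 CPM (median 85.7), in Maintenance 37.8 to 69.7 (median 54.8) and in Abstinence 63.6 to 78.7 (median 70.5). Of the 8 Maintenance libraries, 7 lay below the lowest Saline library, and only Maintenance 1 (69.7 CPM) lay above Saline 8 (66.4 CPM). The Abstinence libraries lay between: all 7 were below the Saline median, and 5 of 7 were above the highest Maintenance library. Means stood at 83.6 ± 7.56 CPM (SD) for Saline, 54.9 ± 10.2 for Maintenance and 70.9 ± 5.30 for Abstinence. The fitted log2 fold change was -0.61 ± 0.10 (SE) in Maintenance against Saline, or 0.657-fold.

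The difference of Csf2ra between Abstinence and Maintenance, which shares the Maintenance libraries with the comparison behind the choice of genes, was 0.37 ± 0.10 on the log2 scale, or 1.29-fold, with a 95% interval of 0.17 to 0.57. It did not pass in edgeR (adjusted p = 0.0738, unadjusted p = 0.00115), and passed with DESeq2 (0.36, adjusted p = 0.0186) and in edgeR without Maintenance 1 (0.42, adjusted p = 0.0382). Against Saline, whose libraries are shared as well, Csf2ra in Abstinence differed by -0.24 ± 0.10 (95% interval -0.44 to -0.04), which did not pass in edgeR (adjusted p = 0.999, unadjusted p = 0.0263).

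Csf3r, the G-CSF receptor, was likewise lower in Maintenance, and its Abstinence libraries lay near the Saline level. Saline libraries ranged from 224 to 309 CPM (median 285), Maintenance from 180 to 227 (median 220) and Abstinence from 244 to 332 (median 276). All 8 Maintenance libraries were below the Saline median, and 6 of 8 were below Saline 8, the lowest Saline library. Saline and Maintenance overlapped only through Saline 8 (224.4 CPM), which lay just under Maintenance 1 (227.0) and Maintenance 6 (225.7). All 7 Abstinence libraries were above the highest Maintenance library, and 2 of 7 were above the highest Saline library. The fitted log2 fold change was -0.39 ± 0.07 in Maintenance against Saline, or 0.764-fold.

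Csf3r was the only one of the 6 genes that passed in Abstinence against Maintenance, where it rose 1.34-fold (log2 0.42 ± 0.08, edgeR adjusted p = 0.00564). This test uses the same 8 Maintenance libraries whose low Csf3r values led to the choice of the gene, so a part of the difference can follow from that choice and the p is not independent support. The background of this comparison was 0.949% of genes called (0.397% called higher). All genes with non-overlapping groups, higher in every Abstinence library, made up 0.205% of those tested. DESeq2 called 2 of the 6 genes, Csf3r and Csf2ra (background 4.93% of the 9557 genes it tested there). In edgeR 3 of 6 had an unadjusted p under 0.05 (background 11% of 16121). Against Saline, whose libraries also entered the choice, the difference of Csf3r in Abstinence was 0.03 ± 0.08 (95% interval -0.12 to 0.18, edgeR adjusted p = 0.999). In that comparison 0 of the 6 genes passed in edgeR (background 0.0186%) and 0 in DESeq2 (background 0.223%), and 2 of 6 had an unadjusted p under 0.05 in edgeR (background 4.39%).

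**Figure D2:**
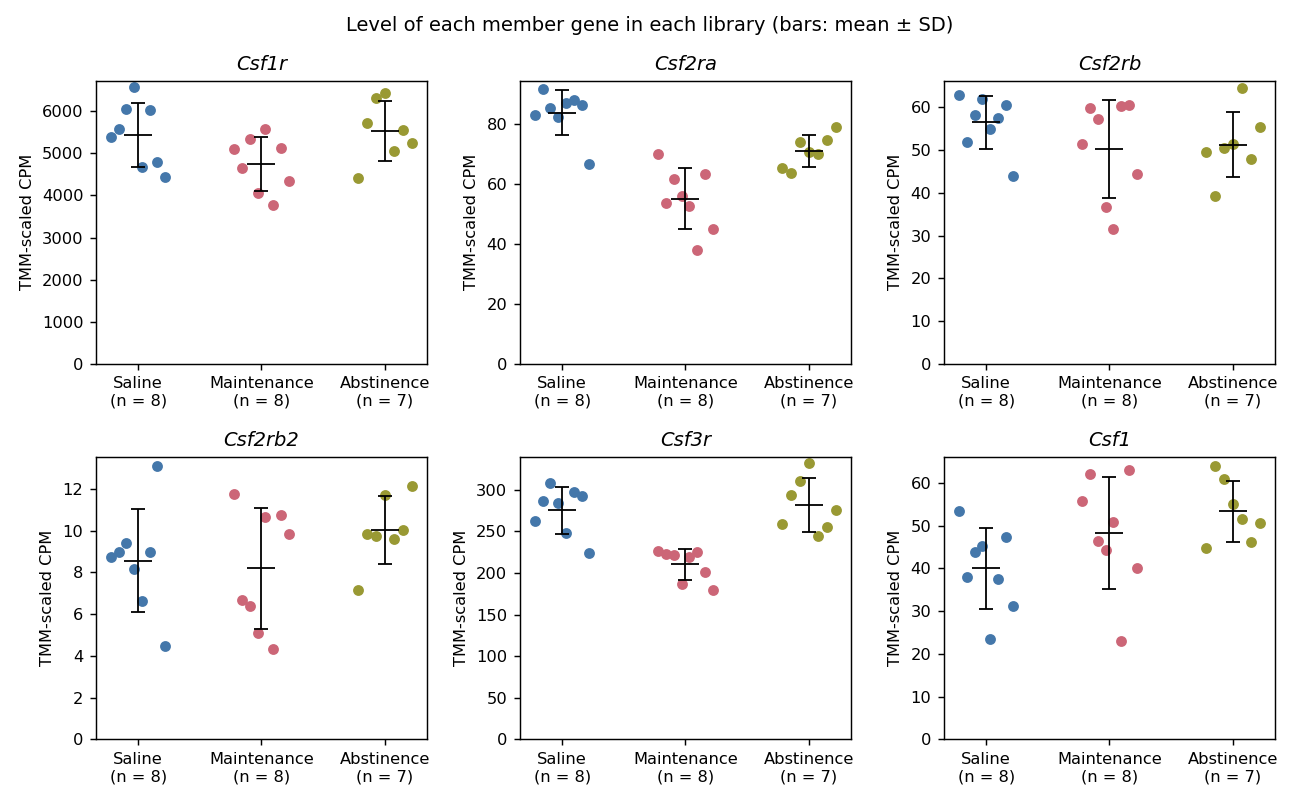
TMM-scaled CPM of the 6 genes in each library of the Saline, Maintenance and Abstinence groups, with a point per library and black bars for the mean and SD. The 7 Abstinence libraries of Csf3r lie at 244 CPM or more, above all 8 Maintenance libraries, and 7 of 8 Maintenance libraries of Csf2ra lie below 66.4 CPM.

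The 2 beta chains differed less between groups than their spread. Csf2rb ranged from 44.0 to 62.9 CPM in Saline (median 57.9), 31.6 to 60.6 in Maintenance (median 54.3) and 39.4 to 64.5 in Abstinence (median 50.6). Its groups overlapped over most of their range, and the fitted log2 fold change of Maintenance against Saline was -0.17 ± 0.13. Csf2rb2 ranged from 4.48 to 13.1 CPM in Saline (median 8.87), 4.32 to 11.8 in Maintenance (median 8.25) and 7.14 to 12.2 in Abstinence (median 9.85). Its log2 fold change in Maintenance against Saline was -0.06 ± 0.23, and its sign turned with single libraries left out (-0.16 to 0.06). In Abstinence, Csf2rb differed from Saline by -0.14 ± 0.13 and from Maintenance by 0.03 ± 0.13, and Csf2rb2 by 0.23 ± 0.23 and 0.29 ± 0.23 (edgeR adjusted p from 0.772 to 0.999). The alpha chain and the common beta chain, which form 1 receptor, thus had log2 fold changes of -0.61 and -0.17 in Maintenance against Saline. The difference between these 2 changes was not tested.

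Csf1r, the receptor for M-CSF and IL-34, ranged from 4440 to 6581 CPM in Saline (median 5483), 3782 to 5570 in Maintenance (median 4882) and 4404 to 6437 in Abstinence (median 5549). The 3 groups overlapped, with Maintenance lowest by its median. The fitted log2 fold change was -0.20 ± 0.09 in Maintenance against Saline. Abstinence differed from Maintenance by 0.22 ± 0.10 (edgeR adjusted p = 0.363, unadjusted p = 0.0291) and from Saline by 0.02 ± 0.10 (adjusted p = 0.999), neither of which passed.

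The ligand Csf1 was lowest in Saline by its median. It ranged from 23.5 to 53.4 CPM in Saline (median 40.9), 22.9 to 63.0 in Maintenance (median 48.6) and 44.8 to 64.1 in Abstinence (median 51.6). All 7 Abstinence libraries were above the Saline median and 3 of 7 above the highest Saline library. The log2 fold change was 0.27 ± 0.17 in Maintenance against Saline and 0.42 ± 0.17 in Abstinence against Saline (95% interval 0.08 to 0.75), and the second did not pass in edgeR (adjusted p = 0.94, unadjusted p = 0.022). With the mean level of neutrophil markers as a covariate these became -0.01 ± 0.21 and 0.12 ± 0.22. That mean was itself 1.51 in Saline, -1.15 in Maintenance and -1.35 in Abstinence (log2 level). Covariate and group therefore cannot be told apart in these 2 values, and a part of neutrophils in the Csf1 level was not tested. Abstinence and Maintenance differed by 0.15 ± 0.17 (edgeR adjusted p = 0.887).

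**Figure D3:**
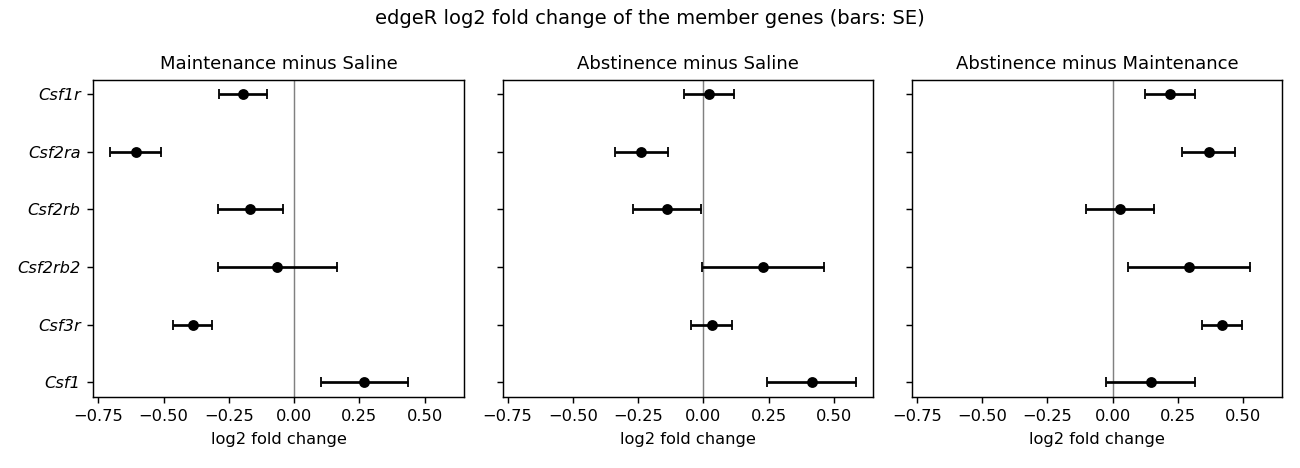
Log2 fold change of the 6 genes in the 3 comparisons, with bars of 1 SE from the edgeR fit. Csf2ra (-0.61) and Csf3r (-0.39) are lowest in Maintenance against Saline, and Csf3r (0.42) is highest in Abstinence against Maintenance.

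The rarer receptors were also read against Csf1r, the most abundant of the 6, within each library. For every 1000 Csf1r reads, Saline libraries held 12.5 to 18.6 Csf2ra reads (median 15.2), Maintenance libraries 9.45 to 13.8 (median 11.5) and Abstinence libraries 11 to 15 (median 13.4). For Csf3r the ratio spanned 43.1 to 61 (median 50.7) in Saline libraries, 39.2 to 59.7 (median 43) in Maintenance libraries and 45.9 to 58.8 (median 51.3) in Abstinence libraries. The Csf3r ratio in Abstinence was thus at the Saline median, while the Csf2ra ratio lay between those of the other 2 groups. Exact two-sided permutation tests were run for 6 differences, those of Abstinence from Saline and from Maintenance. For Csf2ra and Csf3r they set Abstinence against the libraries whose values led to the choice of these genes, so they are not independent of it. The Csf2ra ratio in Abstinence was lower than in Saline by a log2 difference of -0.26 (exact p = 0.023, adjusted p = 0.123) and the Csf3r ratio differed from Maintenance by 0.20 (exact p = 0.041, adjusted p = 0.123). Neither passed after adjustment, and without Maintenance 6, 7 and 8 the second was 0.22 and passed (exact permutation, adjusted p = 0.0379). The Csf2ra ratio in Abstinence differed from Maintenance by 0.17 (exact p = 0.127, adjusted p = 0.254) and the Csf3r ratio from Saline by 0.0056 (exact p = 0.933, adjusted p = 0.933). The Csf2rb ratio differed by -0.17 in each of these comparisons (exact adjusted p = 0.318 and 0.492).

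Because Csf3r and Csf2ra are also carried by neutrophils and monocytes, their markers are given beside these values. Summed neutrophil markers spanned 50.1 to 960 CPM (median 137) in Saline libraries, 9.97 to 195 (median 92.9) in Maintenance libraries and 14.6 to 172 (median 67.4) in Abstinence libraries. Of the 14 markers, 14, 12 and 10 had counts in these groups, with Elane and Mpo at 0 throughout Maintenance and Elane, Mpo, Ltf and Ly6g at 0 throughout Abstinence. The most abundant, S100a8 and S100a9, averaged 93.6 and 38.8 CPM in Saline, 42.7 and 16 in Maintenance and 30.1 and 15.5 in Abstinence. Their medians were closer, at 50.55 and 20.55 CPM in Saline, 39.15 and 13.4 in Maintenance and 29.12 and 14.95 in Abstinence. The highest Saline values were 415.6 and 175.1 CPM.

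Averaged over the neutrophil list, the log2 level stood at 1.51 ± 1.92 (SD) for Saline, -1.15 ± 1.01 for Maintenance and -1.35 ± 0.81 for Abstinence. Abstinence differed from Maintenance in this list by -0.20 (exact permutation p = 0.682). Against Saline the list was lower in Maintenance (exact permutation p = 0.00435, adjusted over 36 marker tests 0.0522) and in Abstinence (p = 0.00357, adjusted 0.0522, exact permutation), neither of which passed at a prior count of 2, and both passed at 0.5 (adjusted p = 0.0298, exact permutation). With this mean as a covariate, the edgeR difference of Csf3r between Abstinence and Maintenance was 0.42 ± 0.08 (adjusted p = 0.00873), and Csf2ra in Maintenance against Saline was -0.64 ± 0.13. Because the mean of the list differed between Saline and Maintenance, covariate and group cannot be told apart in the Csf2ra value. Over 9 alternative fits, this covariate among them, Csf3r in Maintenance against Saline was -0.41 to -0.32. Since the list differed little between Abstinence and Maintenance, the Csf3r value there says little about neutrophil RNA. A part of neutrophils in the Csf3r level was not tested.

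The monocyte list was lowest in Maintenance by its mean log2 level but highest there by the median of its summed CPM. Its mean log2 level stood at 2.55 ± 0.95 (SD) for Saline, 0.82 ± 0.92 for Maintenance and 2.16 ± 0.59 for Abstinence, with exact permutation p = 0.00295 for Maintenance against Saline (adjusted 0.0522, and 0.0298 at a prior count of 0.5) and 0.00715 for Abstinence against Maintenance (adjusted 0.0643). Its 8 markers summed to 96.6 to 352 CPM (median 128) in Saline libraries, 99.5 to 269 (median 140) in Maintenance libraries and 104 to 185 (median 123) in Abstinence libraries, and all 8 had counts in each group. The most abundant, Ccr2 and F13a1, averaged 23 and 96.2 CPM in Saline, 14.0 and 116 in Maintenance and 13.6 and 88.7 in Abstinence, and F13a1 is also on the list of border macrophage markers. The part of monocyte RNA in the receptor levels was not tested, and this list was not used as a covariate. Summed dendritic cell markers, led by Batf3 and Cd209a, were 23 to 63.5, 25.1 to 59.8 and 29.2 to 45 CPM in the same order, with overlapping groups.

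Oligodendrocyte markers had higher median sums in both methamphetamine groups, with overlapping ranges. All 10 had counts in every library, and their sum spanned 625 to 5200 CPM (median 1700) for Saline, 1260 to 5160 (median 3810) for Maintenance and 1780 to 4560 (median 3460) for Abstinence. Their mean log2 level differed from Saline by 0.73 in Maintenance (exact permutation p = 0.102, adjusted 0.461) and 0.85 in Abstinence (exact permutation p = 0.0404, adjusted 0.241). With that mean as a covariate the log2 fold changes in Maintenance against Saline were -0.65 ± 0.11 for Csf2ra, -0.32 ± 0.08 for Csf3r and -0.11 ± 0.10 for Csf1r, and Csf3r in Abstinence against Maintenance was 0.42 ± 0.07 (edgeR adjusted p = 0.00321).

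The median sums of the other lists were, for Saline, Maintenance and Abstinence in that order, 487, 550 and 576 CPM for astrocytes (led by Slc1a3 and Aldoc), 268, 309 and 325 for endothelial cells (Slco1a4 and Cldn5) and 221, 288 and 250 for border macrophages (F13a1 and Mrc1). They were 47.9, 46.8 and 68.8 for neurons (Ppp1r1b and Snap25), 55.6, 47.6 and 51 for lymphocytes (Cd79b and Nkg7) and 74.1, 236 and 253 for choroid plexus and ependyma (Ttr and Enpp2). The last 2 lists rest largely on 1 gene each. Enpp2 alone had medians of 71.8, 233 and 251 CPM, and Ttr, which reached 40530 CPM in Maintenance, had medians of 0, 0.0539 and 0. Cd79b alone had medians of 51.6, 45.5 and 49.5 CPM, and Cd3e was at 0 in every library. None of the 36 tests of marker lists and total counts passed after adjustment at a prior count of 2.

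**Figure D4:**
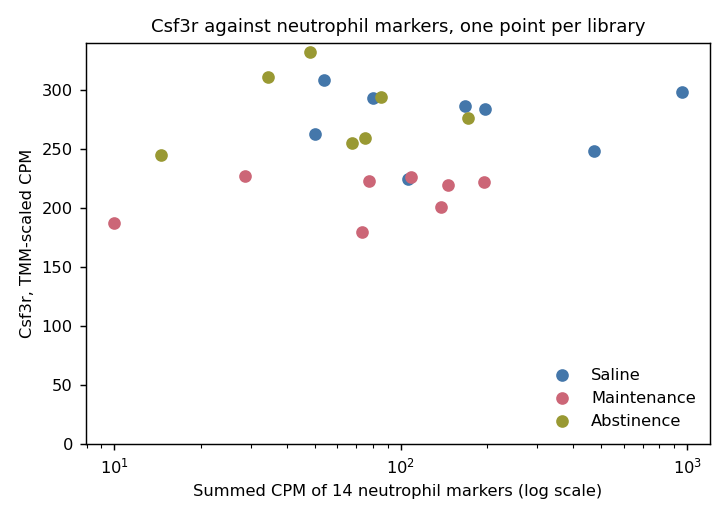
Csf3r level (TMM-scaled CPM) against the summed CPM of 14 neutrophil markers (log axis), with a point per library coloured by group. Abstinence libraries span 14.6 to 172 CPM of neutrophil markers with Csf3r at 244 CPM or more, and Maintenance libraries span 9.97 to 195 with Csf3r at 227 or less.

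Signalling from these receptors runs through a common set of kinases, adaptors and transcription factors. These were listed with related genes, 89 in all, of which 84 were tested and are called pathway genes here. The 89 included 7 ligands and partner chains, 10 feedback inhibitors, 10 survival and growth targets and 2 receptor-shedding proteases. A further 19 were other cytokine receptors of myeloid cells, so the totals below are not specific to signalling from the receptors followed here. In Maintenance against Saline 1 of 84 passed, against a background of 0.707% of genes called (0.372% called lower). There 14 of 84 had an unadjusted p under 0.05 (background 11.8%), and DESeq2 called 5 (background 3.07% of the 11433 genes it tested). None of the 84 passed in Abstinence against Saline or against Maintenance in edgeR, where 10 and 21 had an unadjusted p under 0.05 (background 4.39% and 11%). In these 2 comparisons DESeq2 called 1 and 9 (background 0.223% of 16121 and 4.93% of 9557 genes). The median log2 fold change of the 84 was -0.0862, -0.05 and 0.0424 in the 3 comparisons in that order, with 55, 53 and 37 of 84 negative. Over all genes tested the medians were 0.00516, 0.00781 and 0.00638, and 49.4%, 48.7% and 49.2% of genes were negative. The lists were chosen with earlier results of these data known.

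The gene that passed was Pik3cd, the catalytic subunit p110 delta of the PI3-kinases of blood cells. Saline libraries held 37.5 to 53.1 CPM (median 41.6), Maintenance libraries 21.3 to 38.1 (median 32.9) and Abstinence libraries 33.7 to 47.9 (median 39.3). Maintenance and Saline overlapped only between 37.5 and 38.1 CPM. It fell by 0.47 ± 0.11 on the log2 scale in Maintenance against Saline (edgeR adjusted p = 0.0473), and Abstinence differed from Maintenance by 0.38 ± 0.12 (adjusted p = 0.126, and 0.0463 by DESeq2). The call stood close to the threshold: of 23 fits that each left out 1 library it was kept in 6 (those without Saline 8, Maintenance 1, 2 or 5, or Abstinence 1 or 5) and lost in 17 (adjusted p over all 23 from 0.031 to 0.106). Without Maintenance 6, 7 and 8 the log2 fold change was -0.30 (edgeR adjusted p = 0.193).

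Among the ligands and partner chains, transcripts of GM-CSF (Csf2), G-CSF (Csf3) and IL-3 (Il3) had 0 counts in all 23 libraries. A count of 0 allows up to 0.0316 to 0.0546 CPM by library, a limit for counting error only. Il34, the second ligand of Csf1r, averaged 3.07 ± 1.51 CPM in Saline, 4.30 ± 2.33 in Maintenance and 2.30 ± 0.94 in Abstinence (SD), and Il3ra, the IL-3 receptor alpha chain, 1.92, 2.12 and 2.29 CPM. Neither passed in any comparison. Il5ra held counts in 2 libraries and Il5 in 1, and neither could be tested. Adam10 and Adam17, proteases that cut receptors from the cell surface, averaged 473 and 175 CPM in Saline, 492 and 188 in Maintenance and 464 and 182 in Abstinence.

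Of the 20 proximal kinases, adaptors and phosphatases, 14 were negative in Maintenance against Saline (49.4% over all genes), with a median log2 fold change of -0.192. Their 2 most abundant genes were Tyrobp, the adaptor DAP12 that couples to Csf1r signalling, and Inpp5d, the phosphatase SHIP1. Tyrobp averaged 1064 ± 102 CPM in Saline, 838 ± 179 in Maintenance and 1017 ± 216 in Abstinence (SD), a log2 difference of -0.35 ± 0.13 in Maintenance that did not pass (edgeR adjusted p = 0.215). Inpp5d averaged 494, 429 and 447 CPM (log2 -0.20 ± 0.09, adjusted p = 0.318 in edgeR). Of the 11 downstream kinases and STATs, none had an unadjusted p under 0.05 in any comparison. Their most abundant were Stat3 at 211, 194 and 204 CPM and the kinase Map2k1 at 191, 185 and 206.5 CPM.

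Among 10 feedback inhibitors, 5 were negative in Maintenance against Saline (49.4% over all genes). Socs3, which is induced by cytokine receptors and blocks the G-CSF receptor, averaged 318, 243 and 317 CPM in Saline, Maintenance and Abstinence. Its log2 differences, -0.39 ± 0.13 in Maintenance against Saline and 0.39 ± 0.13 in Abstinence against Maintenance, did not pass (edgeR adjusted p = 0.16 and 0.182). Dusp6, a phosphatase that shuts off ERK, was at 996, 1029 and 778 CPM, with -0.40 ± 0.10 in Abstinence against Maintenance (adjusted p = 0.0556 in edgeR). Dusp6 passed in that comparison in 4 of the fits that left out 1 library, those without Saline 6, Maintenance 8 or Abstinence 4 or 5 (0.014 to 0.0483). It also passed with RLE factors (0.0375), by DESeq2 (0.00335), without Maintenance 6, 7 and 8 (0.013) and with just the 17 libraries found in another deposited table (0.0109).

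Of 10 transcription factors known to act on these receptor genes, 7 were negative in Maintenance against Saline (49.4% over all genes). Irf8 averaged 618.5, 573.5 and 646 CPM in the 3 groups. Spi1, which encodes PU.1, averaged 456, 385 and 422 CPM (log2 -0.24 ± 0.09 in Maintenance against Saline, edgeR adjusted p = 0.228).

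The 10 survival and growth targets were led by Bcl2l1, an inhibitor of apoptosis, and Ccnd1, cyclin D1 of the G1 phase. Bcl2l1 averaged 284, 234 and 263 CPM, with a log2 difference of -0.28 ± 0.08 in Maintenance against Saline (edgeR adjusted p = 0.0936) that DESeq2 called (0.0451). Ccnd1 averaged 252 ± 24.0 CPM in Saline, 203 ± 28.2 in Maintenance and 252 ± 17.4 in Abstinence (SD). Its log2 differences were -0.31 ± 0.08 in Maintenance against Saline and 0.31 ± 0.08 in Abstinence against Maintenance (edgeR adjusted p = 0.0538 and 0.0545). Ccnd1 passed in both by DESeq2 (0.0188 and 0.0144), without Maintenance 6, 7 and 8 together (0.0287 and 0.0247), in the 17 libraries (0.00976 and 0.0193) and in edgeR without Maintenance 5, 6 or 7 alone (0.0317 to 0.0383). Without Saline 6 or 8 it passed in the first (0.0402 and 0.0327). Myc, a growth factor response gene named after its values were seen, averaged 220, 204 and 151 CPM. It differed in Abstinence by -0.54 ± 0.12 from Saline and by -0.43 ± 0.12 from Maintenance (edgeR adjusted p = 0.189 and 0.0822), and DESeq2 called both (0.0142 and 0.0132). In edgeR, Myc passed against Saline without Saline 8 (0.0348) and against Maintenance without Maintenance 8 (0.0202), Abstinence 1 (0.0422) or Abstinence 5 (0.05 after rounding), and in both without Maintenance 6, 7 and 8 (0.0476 and 0.0277).

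Among 19 other cytokine receptors of myeloid cells, 14 were negative in Maintenance against Saline (49.4% over all genes), with a median of -0.0756. Tgfbr1, a receptor for TGF-beta, averaged 2444, 2154 and 2292 CPM, and Ifngr1, the interferon gamma receptor chain, 1388, 1378 and 1177 CPM. Neither passed in the edgeR fit of all libraries. Ifngr1 in Abstinence against Maintenance differed by -0.23 ± 0.09 there (edgeR adjusted p = 0.307), and it passed without Maintenance 6, 7 and 8 (-0.33, adjusted p = 0.0314) and in the 17 libraries (-0.33, adjusted p = 0.0115). Il4ra, named after its values were seen, averaged 52.0, 33.2 and 50.8 CPM. Its log2 differences were -0.65 ± 0.17 in Maintenance against Saline and 0.61 ± 0.18 in Abstinence against Maintenance (edgeR adjusted p = 0.0801 and 0.0978), and DESeq2 called both (0.024 and 0.0305). In edgeR the first passed without Saline 7 or Saline 8 (0.0473 and 0.0349) and the second without Abstinence 5 (0.0443). Il6st and Il10rb, also named after their values were seen, averaged 268, 220 and 280 CPM and 267, 288 and 240 CPM. In Abstinence against Maintenance Il6st differed by 0.34 ± 0.09 and Il10rb, the other way, by -0.26 ± 0.07 (edgeR adjusted p = 0.0626 and 0.0605). DESeq2 called both (0.0116 and 0.00434). In that comparison 11 of the 19 receptors were positive and 8 negative.

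**Figure D5:**
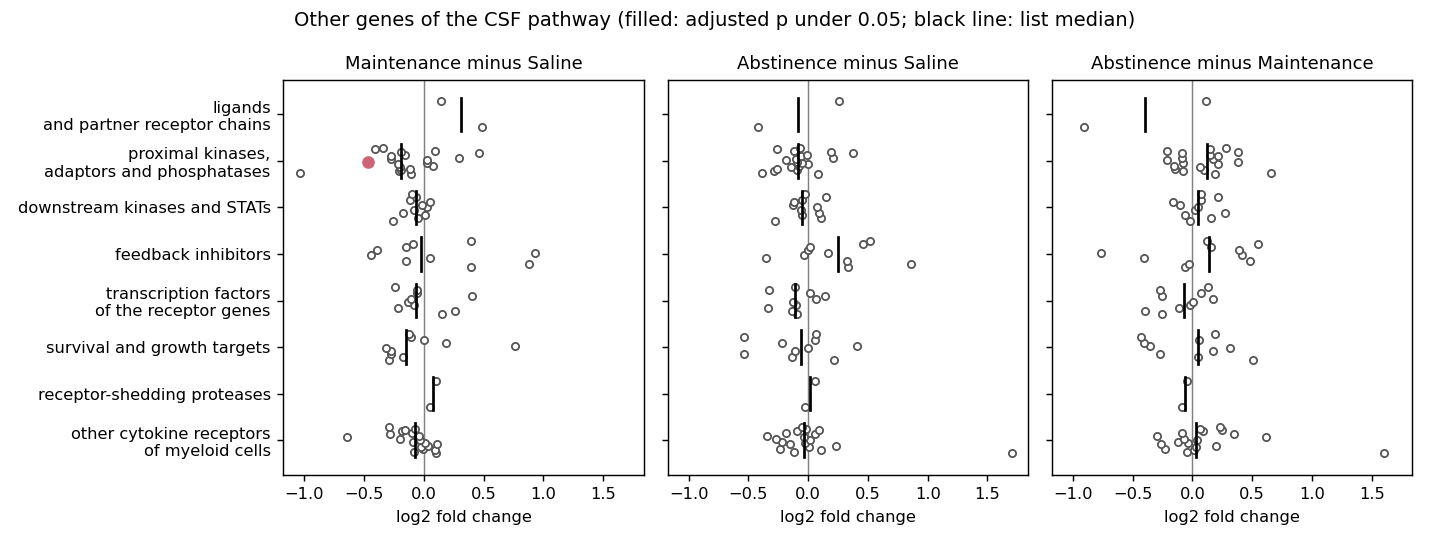
Log2 fold change of the 84 tested pathway genes in the 3 comparisons, by list, with a point per gene (filled where it passed) and a black line at each list's median. The proximal kinases have a median of -0.192 in Maintenance against Saline, and most lists lie close to 0.

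Across the 23 libraries the genes whose log2 CPM was most like that of each receptor were sought among 6139 genes whose mean log2 CPM reached 4 or more. These correlations share library and group and are given as a description with no p. For Csf1r they were Abcc3 (r = 0.945), Slco2b1 (0.928), Man2b1 (0.926), Adgrg1 (0.923) and Laptm5 (0.92), and with group means taken off r was 0.898 to 0.933. For Csf2ra they were H2-Ob (0.817), Gsap (0.814), Rinl (0.81), Coro1c (0.809) and Zfp90 (0.808), with 0.64 to 0.772 after group means were taken off. For Csf3r they were Rbck1 (0.884), Slc44a2 (0.883), Coro1a (0.859), Etv5 (0.858) and Colgalt1 (0.841), with 0.565 to 0.778.

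Among the members, Csf1r and Csf3r had r = 0.708 (0.627 with group means taken off), Csf2ra and Csf3r 0.687 (0.254) and Csf1r and Csf2ra 0.604 (0.512). The correlation of Csf2ra with Csf3r was thus the one of these 3 that lost most when group means were taken off. The 2 beta chains had r = 0.0665.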

How the data were processed

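The 23 libraries of striatal microglia were made with a low-input kit, per the labels. The submitters' processing notes name STAR 2.7.10a and the build mm10 (GRCm38), besides StringTie 2.1.5, DESeq2 1.38.3, cutadapt 1.18 and Trim Galore 0.6.7. The deposited values are whole-number counts per gene, per the file headers and values. A second deposited table, called normalized, held the same counts in 17 libraries (0 of 611592 values differed) and served only to choose an alternative set. It lacked Saline 5, 6 and 8 and Maintenance 6, 7 and 8. Strand and annotation are not given in the sources used here.

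All libraries entered 1 edgeR 4.0.16 quasi-likelihood fit (R 4.3.3) with group as factor, after filterByExpr (minimum count 10, total 15) and TMM scaling. A gene passed below 0.05 after Benjamini-Hochberg adjustment over 16121 genes. Log2 CPM used a prior count of 2. Marker means and ratios were compared by exact permutation. CPM per kb used the longest GENCODE M21 protein-coding transcript. The fit was first tested on simulated data. Library depths were 55 to 94.8 M (1e6) counts, and no 2 libraries held identical counts.

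The genes and lists were chosen with earlier results of these data known. Named were the 6 genes, list members that passed, the 2 most abundant of each list and marker list (those of the microglia and oligodendrocyte lists are not reported here), and the 5 genes most correlated with Csf1r, Csf2ra and Csf3r. Alternatives were RLE factors, no filter, DESeq2 1.42.0, only the compared groups, replicate number as a block, marker means as covariates, a prior count of 0.5, other library sets and each library left out.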

Additional observations from a re-analysis of the deposited data

Results flagged for a closer look

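Dixon's test was applied to 27 groups of values, of which chance flags about 1 in 20, and 2 held a library far from its group. Csf2ra in Saline 8 was 66.37 CPM, against 82.24 in the next Saline library. Saline 8 was also the lowest Saline library for the other 4 receptors and held the highest sum of oligodendrocyte markers in its group (5196 CPM). Without it the log2 fold change of Csf2ra was -0.65 ± 0.10 in Maintenance against Saline and -0.29 in Abstinence against Saline (edgeR adjusted p = 0.468).

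The log2 ratio of Csf3r to Csf1r was -4.067 in Maintenance 6, against -4.391 in the next Maintenance library. This library was the lowest of its group for Csf1r, Csf2ra, Csf2rb2 and Csf1 and had the fewest genes detected. Without it Csf3r differed by 0.43 between Abstinence and Maintenance (edgeR adjusted p = 0.00779).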

How the results depend on the processing

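The call of Csf3r in Abstinence against Maintenance, in which every fit uses Maintenance libraries that led to the choice of this gene, was kept in all 23 fits that left out 1 library (0.38 to 0.45, adjusted p 0.00319 to 0.0228) and in the other 9 alternatives (0.37 to 0.42, 3.4e-05 to 0.0288). Csf2ra in that comparison passed in 1 of 23 and in 1 of 9. The members called there were 1 to 2 with a library left out and 2 by DESeq2, and against Saline 0 throughout. In Maintenance against Saline, Csf2ra was -0.66 to -0.55 and Csf3r -0.43 to -0.36 with a library left out.

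Pathway genes called in Maintenance against Saline numbered 0 with no filter, with only the compared groups or with the neutrophil covariate, 5 by DESeq2 and 0 to 4 with a library left out. In Abstinence against Saline they numbered 1, Myc each time, by DESeq2, without Maintenance 6, 7 and 8 and in the 17 libraries (0 to 1 with a library left out). The 1 call in Maintenance against Saline was Ccnd1, not Pik3cd, without Maintenance 6, 7 and 8 and in the 17 libraries. In Abstinence against Maintenance they numbered 2 with RLE factors (of 190 genes called), 9 by DESeq2 (of 471), 6 without Maintenance 6, 7 and 8 (of 199), 6 in the 17 libraries (of 238) and 0 to 4 with a library left out. Pik3cd lost its call with no filter (0.0676), only the compared groups (0.107), the 17 libraries (0.118) and the neutrophil covariate (-0.60, 0.113).

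No pairing of libraries by replicate number was seen, though these values cannot exclude it. The 22 same-number pairs had a median correlation of -0.013, and 8 were over 0.1. The 154 different-number pairs had a median of -0.024, and 54 were over 0.1. Of 23 libraries, 2 correlated best with their own number. With replicate number as a block, pathway genes called were 1 in Abstinence against Saline (Myc, of 4 genes called), 4 in Abstinence against Maintenance (Dusp6, Ifngr1, Il10rb and Myc, of 126) and Ptpn6 in place of Pik3cd in Maintenance against Saline, all genes called in Maintenance against Saline 69, and the adjusted p of Pik3cd 0.0581. In Abstinence against Saline the sign turned for Csf1r (-0.006173) and Csf3r (-0.003288) under the block and in the 17 libraries (-0.0456 and -0.0335), and with a library left out (-0.0214 to 0.0708 and -0.0133 to 0.0627), as did Csf2rb in Abstinence against Maintenance (-0.0548 to 0.0837).

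Genes called in Maintenance against Saline were 351 by DESeq2, 57 with only the compared groups, 176 in the 17 libraries, 32 with the neutrophil covariate and 42 to 197 with a library left out, against 114. In the same order they were 36, 5, 56, 0 and 1 to 15 in Abstinence against Saline, where 3 were called (15 without Maintenance 6, 7 and 8, and 1 with an oligodendrocyte covariate). In Abstinence against Maintenance the first 3 were 471, 64 and 238, with 89 to 265 on leaving out a library, against 153. The Csf3r to Csf1r ratio in Abstinence against Maintenance was 0.22 without Maintenance 6, 7 and 8. With a prior count of 0.5 the neutrophil differences from Saline (-3.36 in Maintenance, -3.56 in Abstinence) and the monocyte difference in Maintenance (-2.10) passed (exact permutation, adjusted p = 0.0298). The causes of these shifts were not tested.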
